A study of Mus musculus with 4 samples.

Results

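Microtubules are hollow polymers of tubulin that give axons and dendrites their shape and carry their transport. Microtubule-associated proteins (MAPs) bind along the polymer and stabilise or bundle it, whereas stathmins bind free tubulin dimers and favour disassembly. In retinal ganglion cells, which send their axons through the optic nerve, both groups are known for their part in axon growth and in the response to axon injury. The genes described are 6 MAP genes (Map1a, Map1b, Map2, Map4, Map6 and Mapt) and 3 stathmin genes (Stmn1, Stmn3 and Stmn4). They were chosen by name, as 9 of the 78334 gene identifiers in the counts table, each matched to 1 identifier, and all 9 were tested.

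Polyadenylated RNA was sequenced from wild-type mouse retinal ganglion cells collected 2 weeks after optic nerve crush, from mice of both sexes aged 8 to 12 weeks at the procedures. Cells of one group carried an AAV2 vector, an adeno-associated virus, encoding mCherry and an anti-miR132-3p shRNA, which is a hairpin aimed at miR-132-3p, a neuronal microRNA. Control cells carried the same kind of vector with mCherry and a scramble shRNA. Virus was given into the eye 2 weeks before the crush. Both groups were injected and crushed, and no uninjured group was compared. Cells of 10 pooled retinas per condition were enriched by Thy1 panning and then sorted on mCherry, with about 5000 cells per library and 2 libraries per group. The anti-miR132-3p libraries held 1731199 and 1732416 counts in total, and the scramble libraries 1845090 and 1846637. The scramble libraries are headed mCherry in the counts table and were matched to their label by exclusion, so the direction of every difference rests on that match.

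Within a group, the libraries of a pair agreed to within sampling noise, with a chi-square over genes, divided by its degrees of freedom, of 1.00 for the anti-miR132-3p pair (p = 0.49) and 1.02 for the scramble pair (p = 0.095). Each pair was therefore counted as 1 sample, and no difference below has a replicate check or an SD. Levels are in CPM, a count relative to the TMM-scaled library total, and are given for every library for each of the 9 genes. Folds come from counts summed over a pair, with exact 95% intervals that cover counting error only. A gene was called by edgeR's quasi-likelihood test at a Benjamini-Hochberg adjusted p under 0.05 over 11427 tested genes, and such a test sets the reads of these libraries against each other rather than the conditions.

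Markers of other retinal cell types also differed between the groups. All 17 ganglion cell markers were detected, with summed levels of 2381 and 2328 CPM in anti-miR132-3p libraries and 2210 and 2234 CPM in scramble libraries. Of the 16 tested, 3 were called higher and 3 lower by edgeR, beside 13.5% and 10.4% of all tested genes. The same shares stand beside the counts of the other marker lists. Thy1, the panning antigen, was 1.47-fold higher, Tubb3 1.42-fold and Nefm 1.30-fold, whereas Pou4f1 was 1.47-fold lower, Ebf1 1.36-fold and Nefh 1.35-fold. Rod markers summed to 17.2 and 13.7 CPM in anti-miR132-3p libraries and 92.5 and 83.0 CPM in scramble libraries, 5.68-fold lower (4.25 to 7.73). All 3 tested rod markers (Sag, Pdc and Pde6b) were called lower, while Gnat1 and Pde6g had 0 counts. Cone markers, all 7 detected and none abundant enough to test, summed to 6.29 and 2.29 CPM in anti-miR132-3p libraries and 15.3 and 24.6 CPM in scramble libraries.

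Amacrine markers, several of which ganglion cells also express, were at 4635 and 4629 CPM in anti-miR132-3p libraries and 3538 and 3584 CPM in scramble libraries. Of the 12 amacrine markers 9 were detected, and Gad1, Tfap2b and C1ql2 had 0 counts. Of the 8 tested, 4 were called higher and 1 lower. Müller glia markers, all 12 detected, were at 2304 and 2316 CPM in anti-miR132-3p libraries and 1761 and 1760 CPM in scramble libraries. Of the 7 tested, only Dkk3 and Apoe were called higher, Dkk3 by 1.48-fold and Apoe by 3.31-fold. The other 5 were not called, with log2 fold changes of -0.69 for Rlbp1, -0.10 for Glul, -0.014 for Clu, 0.30 for Vim and 0.75 for Sox9. Among the tested markers of astrocytes, oligodendrocytes, microglia and macrophages, bipolar, horizontal and endothelial cells, the endothelial gene Flt1 was called higher and the macrophage gene Cd68 lower. The part of these cell types in the results below was not tested. In these bulk samples fewer cells of a type and less RNA per cell cannot be told apart.

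The sequences that define the comparison are the microRNA, with its seed in capitals (bases 2 to 8), the hairpin insert built against it and the scramble insert. In the inserts, capitals mark GACTGTT, the complement of the seed. The microRNA is from RefSeq (GRCm38.p6, chromosome 11, plus strand, 75173723 to 75173744).
miR-132-3p: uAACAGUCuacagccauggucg
anti-miR132-3p insert: cgaccatggctgtaGACTGTTa
scramble insert: tcgagggcgacttaaccttagg
The anti-miR132-3p insert is the exact reverse complement of the microRNA over all 22 bases, and the scramble insert holds no GACTGTT.

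The 9 genes moved in both directions and by small amounts. With the anti-miR132-3p shRNA, Map1a and Map4 were higher and Map1b, Mapt, Stmn1 and Stmn4 were lower, while Map2, Map6 and Stmn3 were not called. The 6 calls, 2 higher and 4 lower, stand beside a background of 23.8% of tested genes called, 13.5% higher and 10.4% lower. By fold alone, 5 of the 9 differed by at least 1.2-fold, against 49.2% of tested genes. Of these, 2 were higher and 3 lower, against 27.5% and 21.6% of tested genes. The largest folds were 1.33 upward and 1.40 downward. In all 9 genes the libraries of the groups did not overlap, but this held for 61.8% of tested genes. The median log2 fold change was -0.10 over the 9 genes and -0.0030 over all tested genes.

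**Figure D1:**
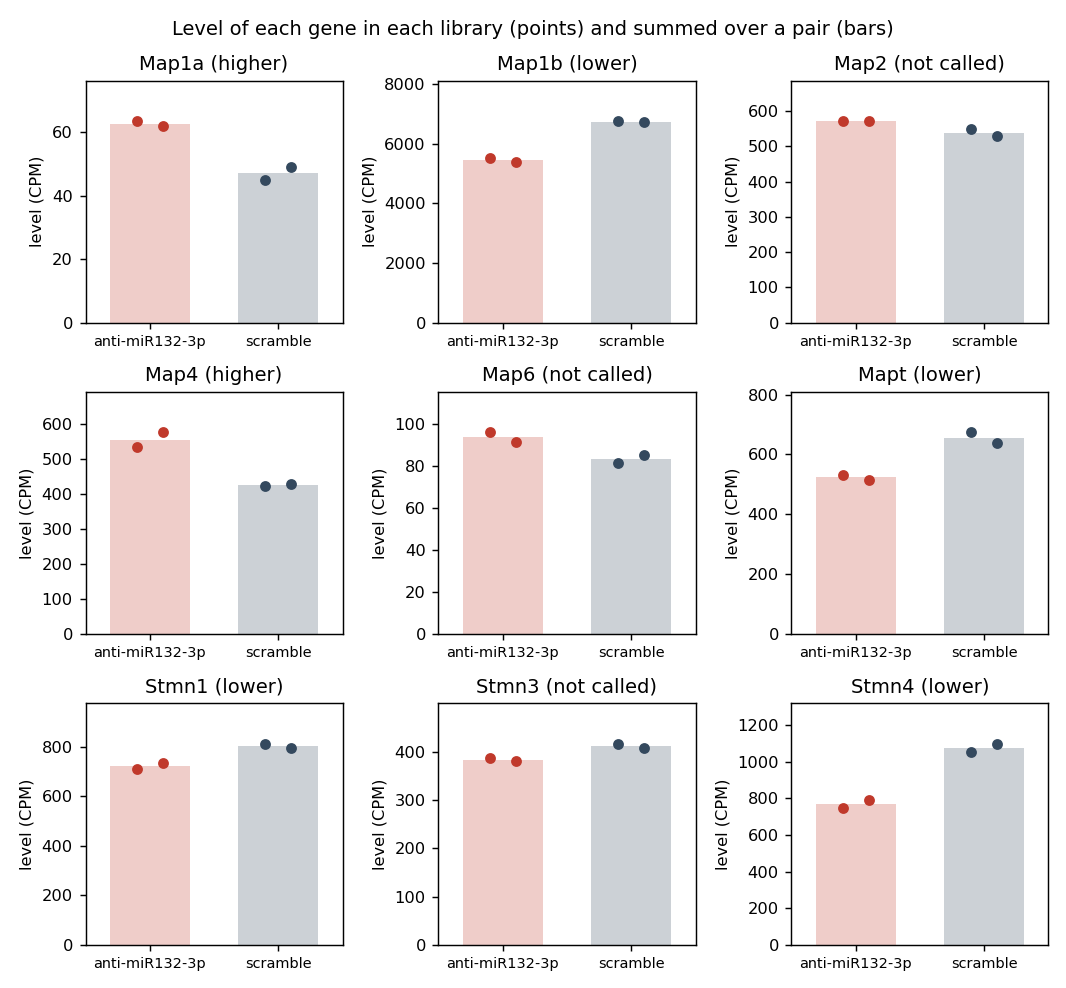
Level of each gene in CPM (y axis, from 0) with the anti-miR132-3p and the scramble shRNA (x axis). Points are libraries and bars the level summed over a pair; "higher", "lower" and "not called" give edgeR's call. Map1b stands at 5374 to 6747 CPM while Map1a stands at 44.9 to 63.5 CPM, and the 2 libraries of a pair lie close together in every panel.

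Map1b was the main source of MAP reads. It encodes a MAP that appears early in growing axons. Its level was 5528 and 5374 CPM in anti-miR132-3p libraries, against 6747 and 6709 CPM in scramble libraries. Both anti-miR132-3p libraries were below both scramble libraries. The fold was 1.23 lower (1.21 to 1.26), which is an edgeR log2 fold change of -0.30. Map1b held 75.1% (exact Clopper-Pearson 95% interval 74.6 to 75.7) of the counts of the 6 MAP genes with the anti-miR132-3p shRNA and 79.4% (78.9 to 79.8) with the scramble shRNA.

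Map1a, its paralogue known from mature neurons, went the other way at a much lower level. It stood at 63.5 and 61.8 CPM in anti-miR132-3p libraries, against 44.9 and 49.1 CPM in scramble libraries. These values rest on 111 and 108 counts in anti-miR132-3p libraries, against 82 and 90 in scramble libraries. The fold was 1.33 higher (1.09 to 1.64), and edgeR's adjusted p of 0.034 was the closest of the 6 called genes to the threshold. Per kilobase of transcript, the Map1a to Map1b ratio was 0.0115 in both anti-miR132-3p libraries, against 0.00664 and 0.00731 in scramble libraries. A spline correction for GC content and length ended the Map1a call, with a log2 fold change of 0.029. With the same correction Map1b stayed lower, at -0.44. Exons of Map1a overlap those of Ppip5k1 on the opposite strand, and the strand setting of the counting is not given in the sources used here. Ppip5k1 had 64 counts over all 4 libraries.

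Mapt, which encodes tau, the MAP enriched in axons, was lower. It stood at 532 and 513 CPM in anti-miR132-3p libraries, against 673 and 639 CPM in scramble libraries. The groups did not overlap, and the fold was 1.26 lower (1.18 to 1.33). With the correction for GC content and length its log2 fold change was -0.60, against -0.33 without it.

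Map2, the MAP of dendrites and cell bodies, was not called. It stood at 571 CPM in each anti-miR132-3p library, against 549 and 528 CPM in scramble libraries, a fold of 1.06 (0.996 to 1.13) with an edgeR adjusted p of 0.16. The interval runs from about no difference to a 1.13-fold higher level, before any spread between animals. The log2 fold change was 0.085, and it turned to -0.059 with the correction. A stretch of Map2 exon overlaps the antisense gene Gm10558, which had 259 counts over the 4 libraries.

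Map4, a MAP found in many cell types besides neurons, had the larger absolute rise of the 2 genes called higher. It stood at 532 and 575 CPM in anti-miR132-3p libraries, against 420 and 427 CPM in scramble libraries. The lowest anti-miR132-3p library was above the highest scramble library, and the fold was 1.31 higher (1.22 to 1.40). The correction for GC content and length left a log2 fold change of 0.052 and ended the call. Map6, which encodes a protein of cold-stable microtubules, stood at 96.1 and 91.6 CPM in anti-miR132-3p libraries, against 81.6 and 85.2 CPM in scramble libraries. Its fold was 1.13 (0.960 to 1.32) and edgeR did not call it (adjusted p = 0.25). Its log2 fold change of 0.17 turned to -0.24 with the correction, also uncalled. Within each library the ratio of Map4 to Mapt per kilobase was 0.862 and 0.965 with the anti-miR132-3p shRNA, against 0.538 and 0.576 with the scramble shRNA.

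Among the stathmins, 2 of 3 were called lower and 0 higher, beside the 10.4% of tested genes called lower, and the correction for GC content and length left 1 of the 2. Stmn4, a neuronal stathmin anchored to membranes, had the largest fold of the 9 genes. It stood at 745 and 792 CPM in anti-miR132-3p libraries, against 1055 and 1100 CPM in scramble libraries. Both anti-miR132-3p libraries were below both scramble libraries, with a fold of 1.40 lower (1.33 to 1.47). Its log2 fold change was -0.49, with 7.93% of tested genes below it, and -0.51 with the correction for GC content and length.

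Stmn1, the founding member of the family and a cytosolic protein also known from dividing cells, differed less. It stood at 711 and 735 CPM in anti-miR132-3p libraries, against 814 and 796 CPM in scramble libraries. The fold was 1.11 lower (1.06 to 1.17), with an edgeR adjusted p of 0.0070. The correction left a log2 fold change of -0.060 and ended the call. Its counts are uncertain, since 36.5% of the 50-base words of its longest coding transcript also occur in transcripts of other genes, chiefly the pseudogene Gm11223. Gm11223 itself had 37 counts with the anti-miR132-3p shRNA and 43 with the scramble shRNA.

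Stmn3, another membrane-anchored neuronal stathmin, was not called. It stood at 387 and 380 CPM in anti-miR132-3p libraries, against 417 and 407 CPM in scramble libraries. The fold was 1.07 lower (0.997 to 1.16), with an edgeR adjusted p of 0.14. The fold intervals of Stmn4 and Stmn3 did not overlap. The Stmn4 to Stmn3 ratio per kilobase was 1.61 and 1.74 in anti-miR132-3p libraries, against 2.11 and 2.25 in scramble libraries.

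Stmn2, the growth cone stathmin, is not one of the 9 but completes the family. It stood at 525 and 506 CPM in anti-miR132-3p libraries, against 698 and 736 CPM in scramble libraries. It was called lower, 1.39-fold (1.31 to 1.48), a fold close to that of Stmn4.

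**Figure D2:**
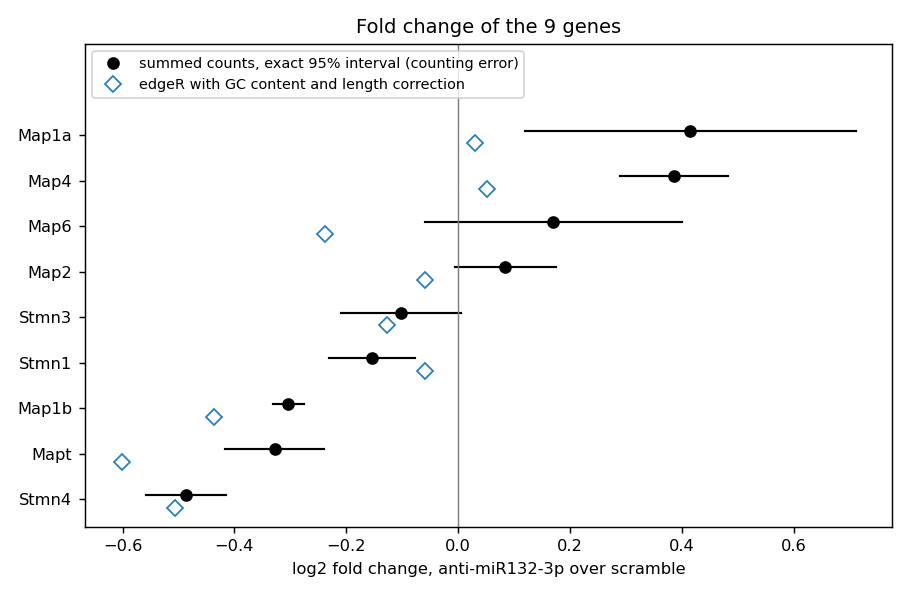
Log2 fold change (x axis) of each gene (y axis), anti-miR132-3p over scramble. Filled points with lines are folds of summed counts with exact 95% intervals for counting error, and open diamonds are edgeR's values after the correction for GC content and length. Stmn4, Mapt and Map1b stay lower by both, whereas Map1a and Map4 move to 0.029 and 0.052.

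Summed over the 6 MAP genes, the level was 7323 and 7187 CPM in anti-miR132-3p libraries, against 8517 and 8438 CPM in scramble libraries. The sum was 1.17-fold lower (1.15 to 1.19), and this followed Map1b. Without Map1b, the other 5 MAP genes summed to 1795 and 1812 CPM in anti-miR132-3p libraries, against 1770 and 1729 CPM in scramble libraries, a fold of 1.03 (0.996 to 1.07). The 3 stathmins summed to 1843 and 1907 CPM in anti-miR132-3p libraries, against 2285 and 2303 CPM in scramble libraries. This sum was 1.22-fold lower (1.18 to 1.26). Within it, Stmn4 held 41.0% of the counts (39.8 to 42.2) with the anti-miR132-3p shRNA and 47.0% (45.9 to 48.0) with the scramble shRNA.

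Compared per length, stathmins and Map1b were far more abundant than the other MAPs. With the scramble shRNA, Stmn4 led at 791 CPM per kilobase of its longest coding transcript. Stmn1 followed at 759, Map1b at 570 and Stmn3 at 363 CPM per kilobase. Then came Mapt at 125, Map2 at 86.1, Map4 at 69.6, Map6 at 16.9 and Map1a at 3.98 CPM per kilobase. With the anti-miR132-3p shRNA the order was the same except that Stmn1, at 682 CPM per kilobase, stood above Stmn4, at 565. Map2 and Map4 were neighbours there that could not be ordered, with 91.3 and 91.2 CPM per kilobase for Map2 in the single libraries and 87.4 and 94.4 for Map4. The order of Stmn4, Stmn1 and Map1b also depends on the length used: over all exonic bases, Stmn4 led with both shRNAs, and Map1b, at 425, stood above Stmn1, at 419, with the scramble shRNA.

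**Figure D3:**
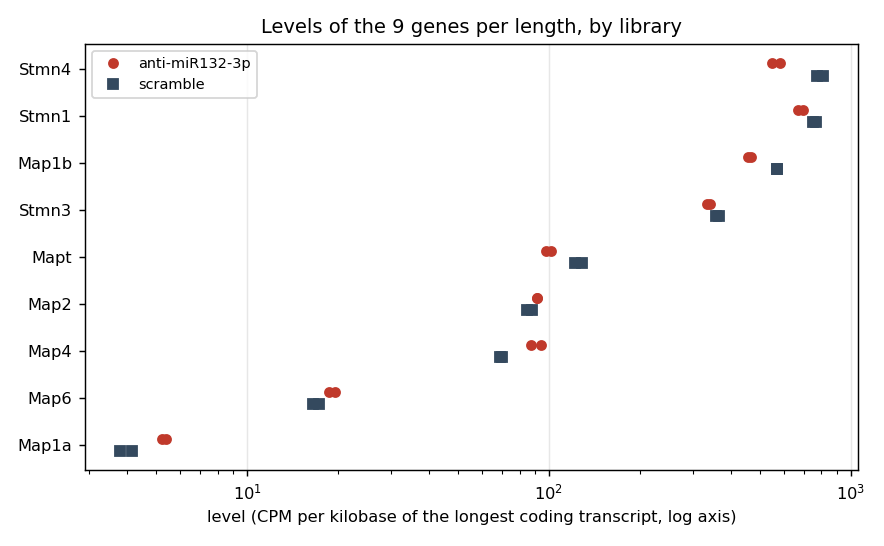
Level of each gene in CPM per kilobase of its longest coding transcript (x axis, log scale), with anti-miR132-3p libraries as circles and scramble libraries as squares. Stathmins and Map1b lie between 335 and 808 CPM per kilobase and Map1a between 3.80 and 5.37 in the single libraries.

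The 9 transcripts also differ in build. The MAP genes are long, with 7531 to 16449 exonic bases, and the stathmin genes are short, with 1136 to 1922, against a median of 4601 among tested genes. GC content of the longest transcript ranged from 47.6% in Map1b to 57.3% in Stmn3, against a median of 48.7% among tested genes. Only Map1b and Map2, at 47.8%, lay below that median. Map1a and Stmn3 both lie on chromosome 2, and the other genes each on a chromosome of their own.

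Other genes that act on microtubules were listed by role, and the lists were drawn up with earlier results of these data known. Of 117 such genes 96 were tested, and 22 (22.9%) were higher and 11 (11.5%) lower. Of all tested genes 13.5% were higher and 10.4% lower, and these shares also stand beside each list below. The median log2 fold change of the 96 genes was 0.12. The correction for GC content and length reversed this split, with 10 called higher and 21 lower, and over all tested genes it gave 8.95% higher and 12.9% lower. Among 22 tested proteins of the microtubule lattice, 7 were higher and 1 lower. Tppp, which promotes polymerisation, stood at 413 and 419 CPM in anti-miR132-3p libraries, against 250.2 and 292 CPM in scramble libraries, 1.54-fold higher (1.42 to 1.67). Map7, a MAP that recruits kinesin-1, was 1.33-fold higher (1.12 to 1.59). Map7d2, of the same family, was 1.43-fold lower (1.27 to 1.61). Mtcl1, a crosslinking factor, was 1.84-fold higher (1.21 to 2.83) at a low level of 20.01 and 17.2 CPM in anti-miR132-3p libraries, against 7.67 and 12.6 CPM in scramble libraries.

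Plus-end proteins, which ride or regulate growing microtubule ends, had 6 of 22 members higher and 2 lower. Clasp1, a rescue factor, was 1.72-fold higher (1.48 to 2.00), Dst, a large linker of cytoskeletal filaments, 1.58-fold (1.43 to 1.75), and Tacc2 1.60-fold (1.23 to 2.08). Mapre1, which encodes the end-binding protein EB1, was 1.27-fold lower (1.14 to 1.41), and Clip4 1.37-fold lower (1.10 to 1.70). The 8 tested severing and minus-end genes had 2 higher and 1 lower. Fign, which encodes the severing enzyme fidgetin, was 1.71-fold higher (1.14 to 2.59), whereas Katnbl1 was 1.36-fold lower (1.08 to 1.71).

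Kinases and phosphatases known to act on tau, MAP2, MAP1B or stathmins had 4 of 22 members higher and 3 lower. Gsk3b, a kinase of tau and MAP1B, stood at 870.2 and 890.2 CPM in anti-miR132-3p libraries, against 1091 and 1104 CPM in scramble libraries, 1.25-fold lower (1.19 to 1.31). Ppp2r5c, a subunit of protein phosphatase 2A, was 1.41-fold lower (1.28 to 1.54), and the tau tubulin kinase Ttbk2 1.27-fold lower (1.10 to 1.46). Mapk8, which encodes JNK1, was 1.41-fold higher (1.18 to 1.68), Camk2a 1.36-fold (1.13 to 1.64) and Camk2b 1.34-fold (1.13 to 1.59). Tubulin-modifying enzymes had 2 of 13 members higher and 1 lower. Hdac6, a tubulin deacetylase, was 1.49-fold higher (1.21 to 1.83), and Ttll1, of a glutamylase complex, 1.40-fold lower (1.22 to 1.61). Kif2a, the only depolymerising kinesin tested, was 1.30-fold lower (1.13 to 1.49). Of 7 tubulin folding cofactors 1 was higher, Tbcd at 1.57-fold (1.28 to 1.94), and 1 lower, Tbcb at 1.18-fold (1.06 to 1.32).

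**Figure D4:**
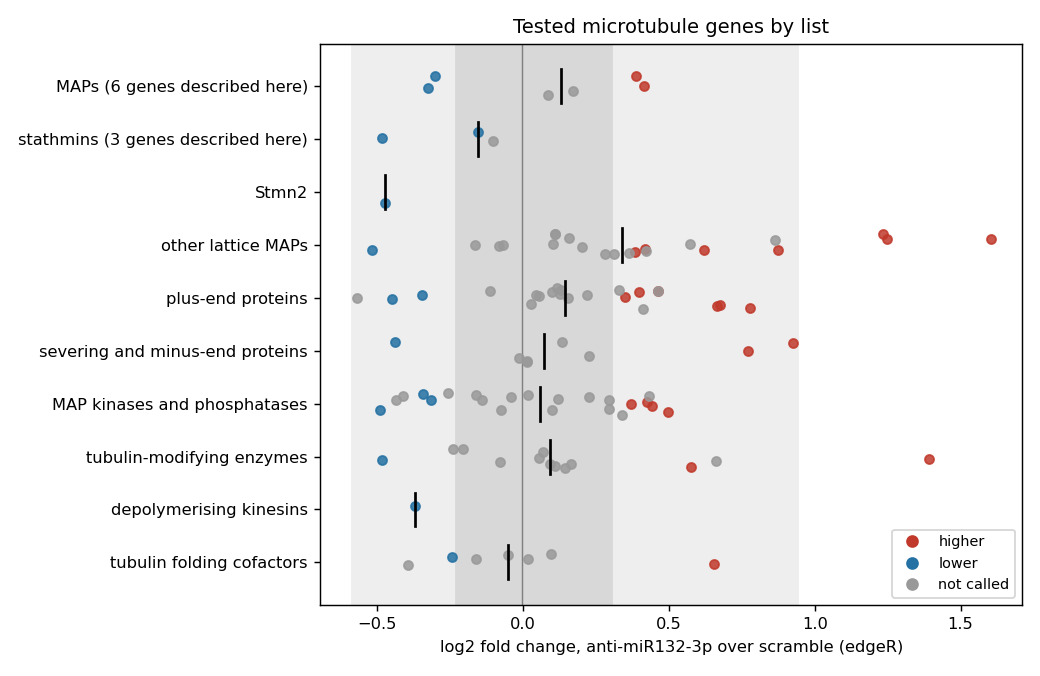
EdgeR log2 fold change (x axis), anti-miR132-3p over scramble, of each tested microtubule gene, by list (rows). Red, blue and grey points were called higher, lower and not called, and black ticks are list medians. Dark and light grey bands span the central 50% and 90% of all 11427 tested genes, from -0.23 to 0.30 and from -0.59 to 0.94. All 9 genes described lie inside the light band.

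The calls rest on the small spread within pairs. Leaving out any 1 of the 4 libraries, whichever group it came from, left 1 library in that group. It ended every call, among all tested genes as well as the 9, so it does not single out these genes. No direction among the 9 changed. Each pair was also summed to 1 sample, with a coefficient of variation of 0.1 assumed between samples. EdgeR's likelihood ratio test then called 0 of the 9 genes, with a smallest adjusted p of 0.19, for Stmn4. An unadjusted p under 0.05 in that test was found for 1 of the 9 genes and for 1804 of all 11427.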

How the data were processed

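The authors deposited whole-number counts per versioned Ensembl gene, not normalized, in 1 table of 4 libraries. Trimmomatic 0.39, HISAT2 2.2.1, SAMtools 1.10, Cufflinks, Cuffnorm, Cuffdiff and the build GRCm39 are named in, and credited to, the submitters' processing notes. Which program counted the reads, with which annotation and strand setting, is not given in the sources used here. The scramble libraries are the columns headed mCherry, matched by exclusion because both vectors carry that reporter. No label states that a group's libraries came from separate animals, so p-values measure only the spread between these libraries. Counted reads are not independent molecules, so intervals cover counting error only. About 40% of ganglion cells were transduced, per the labels' protocols.

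Symbols came from GENCODE M21, an older build (GRCm38), and were found for 51486 identifiers, so no coordinates of genes are given. Lengths and GC content came from the same release, and per-length levels use the longest protein-coding transcript. The fits used R 4.3.3, edgeR 4.0.16 (filterByExpr, TMM, glmQLFit with legacy set to FALSE, glmQLFTest), limma 3.58.1 and DESeq2 1.42.0, and plotted with Python 3.11.15. The tested genes held 98.6% of counts. Agreement of libraries was tested by chi-square over genes with at least 10 summed counts. The script was tested on simulated counts with known folds and counting noise only. That test holds no spread between animals, so it cannot show how the calls would fare with such spread. The correction for GC content and exonic length used spline fits with 4 degrees of freedom per library as offsets, with values for all but a few tested genes (98.7%). The 9 genes and all lists were chosen with earlier results of these data known. The rule for other genes named up to 3 called members per list and direction with at least 10 CPM on average, by size of log2 fold change, and always Stmn2. Of these, 1 gene is not reported here. Alternatives covered scaling, filter, test, threshold, replicate block, left-out libraries and an assumed spread.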

Additional observations from a re-analysis of the deposited data

How the results depend on the processing

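The reported calls were 2 higher and 4 lower for the 9 genes, and 22 and 11 for the other microtubule genes. DESeq2 size factors, library totals alone, a filter of 10 CPM in 2 libraries and limma-voom kept both member counts, with the other genes within 1.5 times. So did the replicate block, with 2 members higher and 4 lower and 23 and 14 of the other genes. Same-numbered libraries did not deviate together (correlation 0.013). Since the libraries of a pair differ by no more than sampling noise, this cannot show whether same-numbered libraries share more than a number.

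For the 9 genes, with higher before lower, DESeq2's Wald test called 1 and 3, an adjusted p under 0.01 gave 1 and 4, and the correction for GC content and length 0 and 3. Over all tested genes, DESeq2 called 4.21% and 2.4%, the stricter threshold 7.49% and 4.79%, and the correction 8.95% and 12.9%. Map2 and Map6, both uncalled, turned to log2 fold changes of -0.059 and -0.24 with that correction. A minimum of 1.5-fold gave 0 and 0, against 8.48% and 2.35% of all tested genes. An assumed coefficient of variation of 0.1 or of 0.2 with pairs summed kept none of the 6 calls and ended most calls over all tested genes. No low-count filter gave 0 and 0, with only 1 gene higher and 2 lower among all 23361 then tested. Without the filter, edgeR's quasi-likelihood test left 7 of the 9 at an unadjusted p under 0.05, beside 5192 of all 23361 genes. Leaving out 1 library ended every call, among the 9 and over all tested genes, with fewer samples by construction. For the other microtubule genes, DESeq2 called 7 and 5, an adjusted p under 0.01 gave 13 and 6, and the correction 10 and 21. A minimum of 1.5-fold gave 12 and 0, a coefficient of variation of 0.1 gave 4 and 0 and of 0.2 gave 0 and 0, no low-count filter 0 and 0, and leaving out 1 library 0 to 0 and 0 to 0. Alternatives for these other genes, and the exonic length, were chosen after seeing the data. The cause of these shifts was not tested, apart from the fewer samples. No spread between animals can be measured here, so folds of this size have no biological error beside them.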
